A study of Mus musculus with 32 samples.

Results

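The 9 genes described here are an interferon-induced and major histocompatibility complex (MHC) class I set, taken as a set by name, with no threshold on a measured value: Ifitm3, Ifitm2, Ifi27, Bst2, Ifit3, Irf9, B2m, H2-D1 and H2-K1. The set was chosen with earlier results of these data known. Its counts and medians beside those of all tested genes are therefore a description, not an independent test. The members are 9 of 55415 features counted in mouse striatum. A low-count filter left 10679 genes for testing and kept 8 of the 9. Bst2, with 216 counts over all libraries, was the member it left out. H2-D1 and H2-K1 lie on chromosome 17, Ifitm3 and Ifitm2 on chromosome 7, B2m on 2, Bst2 on 8, Ifi27 on 12, Irf9 on 14 and Ifit3 on 19.

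RNA came from 32 mice on a B6 background, 8 in each of 4 groups, every library from a different numbered animal. YAC128 mice carry human HTT with an expanded repeat on a yeast artificial chromosome and model Huntington disease. Every mouse had a cannula placed in the lateral ventricle near 6 months of age, with an injection then and again after 2 and 4 weeks, 3 in all. The groups were wild-type (WT) littermates given artificial cerebrospinal fluid (aCSF), YAC128 mice given aCSF, YAC128 mice given a scrambled antisense oligonucleotide (AON), and YAC128 mice given AON12.1, the oligonucleotide under study. Each oligonucleotide dose was 500 µg in 10 µL aCSF, and aCSF alone was given in the same volume. Striatum was collected at 12 months, after an MRI scan and CO2 inhalation. No WT group received an oligonucleotide, so an oligonucleotide group compared with WT differs from it in both transgene and injected agent.

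Type I interferons bind the receptor pair Ifnar1 and Ifnar2, whose kinases Jak1 and Tyk2 activate transcription factors by phosphorylation. These join Irf9 in a complex that binds the interferon-stimulated response element in promoters of target genes, while interferon gamma acts at gamma-activated sites. Among the targets are antiviral effectors and the MHC class I molecules, which present peptides at the cell surface and in brain are found on microglia, endothelium and some neurons.

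Promoter letters are shown first, because the response element is where the pathway's transcription factor complex binds. RefSeq sequences of build GRCm38.p6 covered 8 of the 9 members in 10 windows of 250 bases before the transcription start, and Ifi27 had no entry. The element's core was searched as GAAA, any 2 bases and GAAA, and the gamma-activated site as TTC, any 3 bases and GAA, both on either strand. The core was present in 4 of the 8 members, Ifitm2, Bst2, Ifit3 and B2m, against 3.46% of the 27025 genes with a window of this length. The gamma-activated letters were present in Bst2 alone among the members, overlapping the core, against 8.13% of those genes. B2m and Ifitm3 are given over the full window because they were the members with the smallest p-values between AON12.1 and WT mice, one with the core and one without. Ifitm2, Bst2 and Ifit3 are given as 30 bases around their matches. All run 5′ to 3′ on the gene's strand, with letters matching the core in capitals.
B2m, chr2:122147437-122147686, plus strand: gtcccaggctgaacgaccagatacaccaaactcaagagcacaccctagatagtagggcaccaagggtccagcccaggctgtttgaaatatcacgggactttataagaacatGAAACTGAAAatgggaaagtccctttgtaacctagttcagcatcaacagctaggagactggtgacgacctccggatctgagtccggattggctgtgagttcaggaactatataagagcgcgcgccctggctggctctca
Ifitm3, chr7:141010745-141010994, minus strand: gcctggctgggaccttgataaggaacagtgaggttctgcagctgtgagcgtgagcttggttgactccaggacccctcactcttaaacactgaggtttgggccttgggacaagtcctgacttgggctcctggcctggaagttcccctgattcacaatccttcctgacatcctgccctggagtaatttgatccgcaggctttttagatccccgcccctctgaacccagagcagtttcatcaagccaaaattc
Ifitm2, chr7:140955988-140956017, minus strand: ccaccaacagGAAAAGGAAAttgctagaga
Bst2, chr8:71537580-71537609, minus strand: attccagGAAAATGAAACTGAAAggctgca
Ifit3, chr19:34583363-34583392, plus strand: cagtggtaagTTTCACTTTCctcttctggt
Ifit3, chr19:34583397-34583426, plus strand: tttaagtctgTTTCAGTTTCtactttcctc
The core lay 130 to 139 bases before the start in B2m and 37 to 46 bases before it in Ifitm2. In Bst2 a pair of overlapping matches covered 115 to 130 bases before the start. Ifit3 held separate matches at 147 to 156 and at 113 to 122 bases before its start, both on the opposite strand. The windows of Ifitm3, H2-D1, H2-K1 and Irf9 held no match to either set of letters. A match describes letters only. Variants of the element with other letters were not searched, so a window without a match may still hold a response element. Among the members that passed a test below, B2m held the exact core and Ifitm3 and H2-K1 did not. Ifi27, which also passed, had no window to search.

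Gene counts per library ran from 658934 to 1419313, and levels below are CPM, counts scaled to TMM-normalized library size. A feature with no mouse gene identifier, NM_001388492, was at 0 to 7.06 CPM in the WT libraries and at 94.4 to 187.5 CPM in the YAC128 libraries, which split all 32 libraries by their labelled genotype. The 12 striatal projection neuron markers were all detected, with summed levels of 5121 to 11072 CPM in WT, 3471 to 6950 CPM in YAC128 aCSF, 3276 to 7553 CPM in scrambled and 5943 to 10722 CPM in AON12.1 mice. In bulk tissue, fewer cells of a type and less RNA per cell cannot be told apart. The share of counts in no gene feature ranged from 16.3% to 33.7% and averaged 19.5% ± 4.40 in WT, 25.7% ± 4.92 in YAC128 aCSF, 22.1% ± 2.41 in scrambled and 23.8% ± 6.70 in AON12.1 mice (SD, n = 8 each).

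Ifitm3, a membrane protein that blocks virus entry from endosomes, had a higher median in each of the 3 YAC128 groups than in WT. Its lowest, median and highest levels were 15.3, 33.2 and 47.8 CPM in WT libraries, 36.9, 47.8 and 56.5 CPM in YAC128 aCSF, 38.9, 44.8 and 64.2 CPM in scrambled, and 32.9, 56.9 and 58.2 CPM in AON12.1 mice. The YAC128 aCSF and scrambled medians lay above 7 of the 8 WT libraries and the AON12.1 median above all 8, though every pair of groups overlapped. Its close relative Ifitm2 had medians of 12.9, 9.20, 13.6 and 11.8 CPM in the same order, with libraries from 2.22 to 17.4 CPM in YAC128 aCSF and from 6.29 to 24.3 CPM in AON12.1 mice. No group of Ifitm2 stood apart from the others. Of the 50-base stretches in its last 500 transcript bases, 41.9% also occur in other genes, against 14% for Ifitm3. The deposited files keep reads that aligned more than once in a line of their own, so the level of Ifitm2 may leave out reads from such stretches.

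Bst2, or tetherin, which holds budding virions on the cell surface, was the scarcest member by counts, with 33 in all WT libraries together. Its medians were 4.17 CPM in WT, 7.96 CPM in YAC128 aCSF, 7.33 CPM in scrambled and 9.59 CPM in AON12.1 mice. The AON12.1 group spread from 2.20 to 13.1 CPM and overlapped every other group. Without the filter on low counts, its log2 fold change was 0.72 ± 0.33 (SE) between YAC128 aCSF and WT mice and 0.83 ± 0.33 between AON12.1 and WT mice, with adjusted p of 0.481 and 0.375 from edgeR's quasi-likelihood test. Neither passed.

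Ifi27, a small interferon alpha-induced protein, ran from 32.5 through a median of 38.2 to 55.1 CPM in WT mice. The corresponding levels were 31.0, 52.1 and 68.1 CPM in YAC128 aCSF, 42.6, 57.5 and 74.4 CPM in scrambled, and 50.6, 61.2 and 72.8 CPM in AON12.1 mice. Only WT replicates 2 and 8, at 55.1 and 54.9 CPM, reached into the AON12.1 range. Ifit3, a member of the tetratricopeptide family that binds viral RNA complexes, had medians of 12.5, 17.9, 13.4 and 17.5 CPM in WT, YAC128 aCSF, scrambled and AON12.1 mice, and all 4 ranges overlapped. Its neighbour Ifit3b holds the same letters in 14.9% of the stretches in the last 500 bases, and reads from these may be left out likewise. Irf9, the DNA-binding subunit of the signalling complex, had medians of 8.61, 11.7, 12.3 and 9.88 CPM in that order and single libraries down to 1.62 CPM in WT.

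B2m, the light chain shared by all class I molecules, ran from 47.8 through 64.9 to 83.6 CPM in WT libraries, and in the YAC128 aCSF group from 53.7 through 83.1 to 119 CPM. Scrambled libraries ran from 74.9 through 110.0 to 118 CPM and AON12.1 libraries from 65.1 through 108 to 140 CPM. In both oligonucleotide groups 6 of 8 libraries thus lay above the highest WT library. The heavy chain H2-K1 had lowest, median and highest levels of 22.7, 27.1 and 48.6 CPM in WT libraries, 26.9, 40.7 and 52.6 CPM in YAC128 aCSF, 25.6, 42.7 and 54.7 CPM in scrambled and 38.9, 47.5 and 64.3 CPM in AON12.1 mice. A single WT library, replicate 4, reached into the AON12.1 range. The heavy chain H2-D1 had 38.9, 58.0 and 76.5 CPM in WT libraries, 39.1, 70.0 and 92.4 CPM in YAC128 aCSF, 56.2, 70.7 and 88.9 CPM in scrambled and 69.0, 86.1 and 119 CPM in AON12.1 mice, so its AON12.1 and WT ranges met only at their ends. H2-K1 shares 7.71% of its 3′ stretches with H2-D1, and B2m and Ifi27 share none with another gene. In the GENCODE annotation of GRCm38, B2m overlaps Patl2 on the opposite strand, and Irf9 and Ifitm2 overlap Rnf31 and the gene model Gm45717 on the same strand, so the levels of B2m, Irf9 and Ifitm2 are uncertain by any reads shared with those genes.

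**Figure D1:**
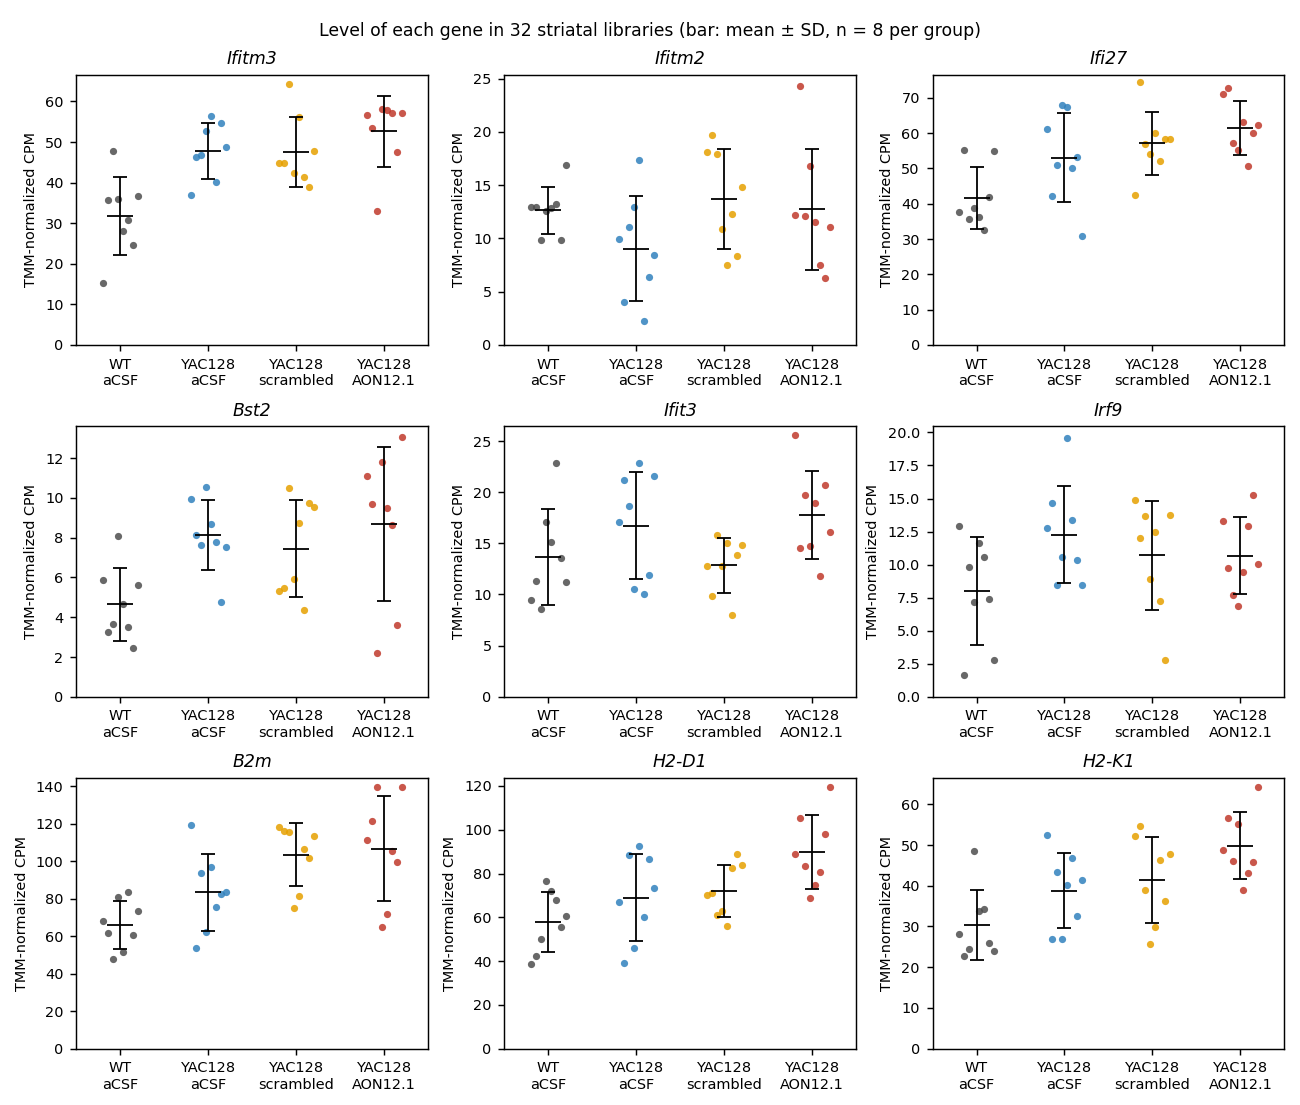
Each panel plots the level of 1 gene in TMM-normalized CPM (y axis) in the 8 libraries of each of the 4 groups (x axis); points are libraries and bars the mean ± SD. Ifitm3 sits at a median of 33.2 CPM in WT and between 44.8 and 56.9 CPM in the YAC128 groups, while H2-K1 and H2-D1 are highest in AON12.1 mice.

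Between YAC128 and WT mice that both received aCSF, the transgene's comparison, no member passed the test, and 7 of the 8 had a higher value in YAC128 mice. Ifitm3 had the smallest p, at 47.9 ± 6.89 CPM against 31.9 ± 9.64 CPM (SD, n = 8), a log2 fold change of 0.60 ± 0.15 (SE) with an adjusted p of 0.117. Irf9 followed in size at 0.54 ± 0.27, then Ifi27 at 0.36 ± 0.14, B2m at 0.32 ± 0.16, H2-K1 at 0.31 ± 0.17, Ifit3 at 0.25 ± 0.21 and H2-D1 at 0.24 ± 0.16. Ifitm2 had the one lower value, at -0.50 ± 0.28. The members' median was 0.31, beside a median over all tested genes within 0.01 of 0. The count of 0 members called by edgeR's quasi-likelihood test stood beside 0.0749% of all tested genes called. At an unadjusted p under 0.05 the members Ifitm3 and Ifi27 passed, 2 of 8, as did 12.5% of all tested genes. DESeq2 gave no member an adjusted p here, and 3 had an unadjusted p under 0.05. Without WT replicate 1, whose share of counts in no feature was 30.2%, the number of genes called rose from 8 to 142 and the number of members called remained 0.

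Between AON12.1-treated YAC128 mice and WT mice, 4 of the 8 tested members were higher: Ifitm3, B2m, H2-K1 and Ifi27. None was lower. Of all tested genes 0.562% were called in either direction and 0.234% were called higher. Ifitm3 was at 52.6 ± 8.69 CPM against 31.9 ± 9.64 CPM (SD, n = 8), a log2 fold change of 0.73 ± 0.15 with an adjusted p of 0.00783. B2m was at 107 ± 27.8 CPM against 65.9 ± 13 CPM, a log2 fold change of 0.68 ± 0.15 with an adjusted p of 0.0209. H2-K1 was at 49.9 ± 8.27 CPM against 30.3 ± 8.60 CPM, at 0.68 ± 0.17 with an adjusted p of 0.0384. Ifi27 was at 61.5 ± 7.59 CPM against 41.6 ± 8.72 CPM, at 0.58 ± 0.14 with an adjusted p of 0.0277. Thus an entry restriction factor, an interferon alpha-induced protein and both chains of a class I molecule were each 1.5 to 1.65 times the WT level. H2-D1 was of like size, 0.61 ± 0.16, and just missed the threshold with an adjusted p of 0.0537. At an unadjusted p under 0.05, 5 of the 8 passed, beside 14.5% of all tested genes. Ifit3 had 0.34 ± 0.21, Irf9 0.36 ± 0.28 and Ifitm2 -0.04 ± 0.27, and none of these passed. The members' median was 0.60, beside 0.01 for all tested genes.

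The Ifitm3 call remained in all 16 fits that left out 1 AON12.1 or WT library, and the other calls did not. B2m lost its call without WT replicate 3 or 5 or AON12.1 replicate 3 or 8, with adjusted p of 0.0563 to 0.0621. Ifi27 lost its call without WT replicate 3, 4, 5 or 6 or AON12.1 replicate 1 or 2, with adjusted p of 0.0533 to 0.0724. H2-K1 lost its call without any 1 of WT replicates 1, 2, 3, 5, 6, 7 and 8 or AON12.1 replicates 1, 2, 4 and 8, with adjusted p of 0.0501 to 0.0894. H2-D1 passed without WT replicate 4 or 5 or AON12.1 replicate 4 or 5, with adjusted p of 0.0261 to 0.0471. All of these fits kept a log2 fold change of 0.53 to 0.83 for B2m, Ifi27, H2-K1 and H2-D1. The titles number the animals in an 18 and a 19 series, and what the series stand for is not given. Within the 19 series, 6 AON12.1 against 5 WT libraries, the difference in mean log2 CPM was 0.68 for Ifitm3, 0.50 for Ifi27, 0.52 for B2m, 0.55 for H2-K1 and 0.37 for H2-D1. Within the 18 series, 2 against 3 libraries, these differences were 0.83, 0.75, 0.96, 1.01 and 1.11.

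**Figure D2:**
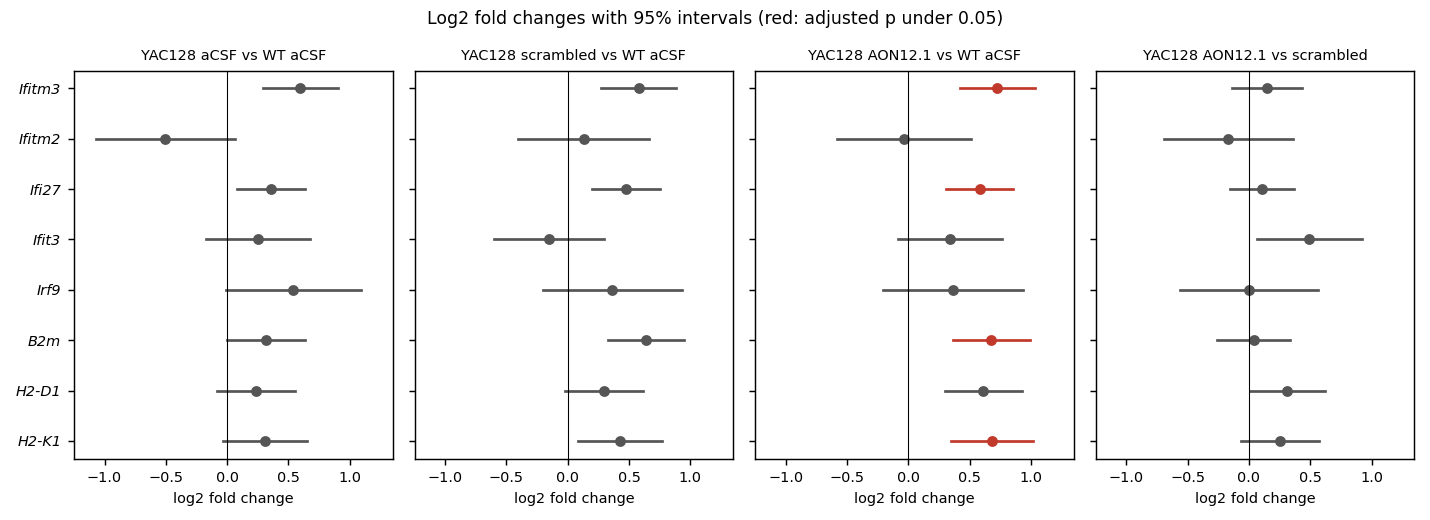
Log2 fold changes of the 8 tested genes (x axis; points) with 95% intervals (lines) in 4 comparisons, 8 libraries per group; red marks an adjusted p under 0.05. Ifitm3, Ifi27, B2m and H2-K1 are red between AON12.1 and WT mice, and no gene is red in the other 3 panels.

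Between scrambled-treated YAC128 mice and WT mice, no member passed, and the leading members were again B2m and Ifitm3. B2m was at 103 ± 16.7 CPM in scrambled mice (SD, n = 8), a log2 fold change of 0.64 ± 0.15 with an adjusted p of 0.0763. Ifitm3 was at 47.5 ± 8.51 CPM, at 0.58 ± 0.15 with an adjusted p of 0.114. Ifi27 had 0.48 ± 0.14, H2-K1 0.43 ± 0.17, Irf9 0.37 ± 0.28, H2-D1 0.30 ± 0.16, Ifitm2 0.13 ± 0.26 and Ifit3 -0.15 ± 0.22. The count of 0 from edgeR stood beside 0.169% of all tested genes called. At an unadjusted p under 0.05, 4 of the 8 members passed, beside 9.8% of all tested genes, and DESeq2 called 1, B2m, with an adjusted p of 0.0264. B2m also passed in edgeR without scrambled replicate 4, the group's lowest library for this gene at 74.9 CPM, with an adjusted p of 0.0309.

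The mean of the 3 YAC128 groups, set against WT, gave the members' standing in the transgenic mice averaged over what they had received. The scrambled and AON12.1 groups received an oligonucleotide and no WT group did. This comparison therefore mixes transgene and injected agent. One member, Ifitm3, was higher, by 0.63 ± 0.13 on the log2 scale with an adjusted p of 0.0124, and it stayed called in all 32 fits that left out 1 library. Of all tested genes 0.234% were called and 0.0936% were called higher. At an unadjusted p under 0.05, 5 of the 8 members passed, beside 13.5% of all tested genes. B2m reached 0.54 ± 0.13 with an adjusted p of 0.0548 and Ifi27 0.47 ± 0.12 with an adjusted p of 0.0611. Leaving out 1 of 8 libraries (WT replicate 1 or 4, YAC128 aCSF replicate 2 or 4, AON12.1 replicate 4 or 5, scrambled replicate 4 or 5) brought B2m past the threshold, at adjusted p of 0.0239 to 0.0472. Ifi27 passed without WT replicate 2 or 8, YAC128 aCSF replicate 2 or 8 or scrambled replicate 1, at adjusted p of 0.0175 to 0.0487, and H2-K1 without WT replicate 4, at 0.0472. These 4 comparisons share the WT libraries, so their values are not independent of each other.

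Among the YAC128 groups themselves no member passed the test. Between AON12.1 and scrambled, the comparison of the oligonucleotide's sequence, edgeR called 0 members and 0.14% of all tested genes. At an unadjusted p under 0.05, Ifit3 with 0.49 ± 0.21 and H2-D1 with 0.31 ± 0.15 passed, both higher in AON12.1 mice, beside 7.25% of all tested genes, and DESeq2 called 0. The 95% interval of the log2 fold change was -0.14 to 0.43 for Ifitm3, -0.26 to 0.34 for B2m, -0.16 to 0.37 for Ifi27 and -0.06 to 0.57 for H2-K1.

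Between AON12.1 and aCSF, both in YAC128 mice, edgeR called 0 members and 0.309% of all tested genes, and DESeq2 called 0 of the 5 members to which it gave an adjusted p. The 3 class I genes were those with an unadjusted p under 0.05, each higher in AON12.1 mice, against 11.6% of all tested genes: H2-D1 with 0.37 ± 0.15, H2-K1 with 0.37 ± 0.16 and B2m with 0.36 ± 0.15. With the mean log2 level of 18 microglial markers as a covariate, these values were 0.18, 0.20 and 0.17, with adjusted p of 0.860, 0.850 and 0.867. H2-D1 was at 0.21 among libraries with at most 25% of counts in no feature, a limit that left 3 YAC128 aCSF libraries. Over 9 other settings of the fit, values ran from 0.18 to 0.37 for H2-D1, 0.20 to 0.42 for H2-K1 and 0.17 to 0.36 for B2m. The striatal projection neuron markers also had higher values in this comparison, 12 of 12 with a median of 0.48, 9 of them with an unadjusted p under 0.05, and edgeR called 0. Their part in the class I values was not tested. Between scrambled and aCSF, edgeR called 0 members and 0.0843% of all tested genes, and DESeq2 called 0, with an adjusted p for 1 member. Ifitm2 with 0.64 ± 0.27 and B2m with 0.32 ± 0.15 had an unadjusted p under 0.05, beside 9.83% of all tested genes, and were at 0.37 and 0.11 with the microglial covariate. Ifitm3 differed by -0.02 ± 0.14 here, the smallest difference of any member. These 3 comparisons share groups in pairs.

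Within groups, the 3 class I genes varied together from animal to animal, and no other pair of members passed the same test. After group means were subtracted from log2 CPM, B2m and H2-K1 had a Pearson r of 0.621 and a Spearman rho of 0.663 over 32 libraries, with adjusted permutation p of 0.00532 and 0.00224. B2m and H2-D1 had r = 0.584 and rho = 0.589 (adjusted permutation p 0.0133 and 0.0147), and H2-D1 and H2-K1 had r = 0.573 and rho = 0.559 (0.0133 and 0.0183). Without the 2 libraries farthest from the median of the first gene of each pair, r was 0.685, 0.470 and 0.544. Within the 18 series of 11 libraries r was 0.893, 0.701 and 0.752, and within the 19 series of 21 libraries 0.446, 0.590 and 0.517. The other 25 of the 28 pairs did not pass, and the median r over all pairs was 0.127. Values of this size were not particular to class I pairs. Among 10083 genes compared, r reached 0.734 for B2m with Plat, 0.820 for H2-D1 with Idh3a and 0.691 for H2-K1 with Slc25a42. The share of all gene pairs that would pass was not computed. Ifitm3 and B2m, the members with the smallest p-values between either oligonucleotide group and WT, had r = -0.224 (rho = -0.0975, adjusted permutation p 0.670 and 0.832).

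**Figure D3:**
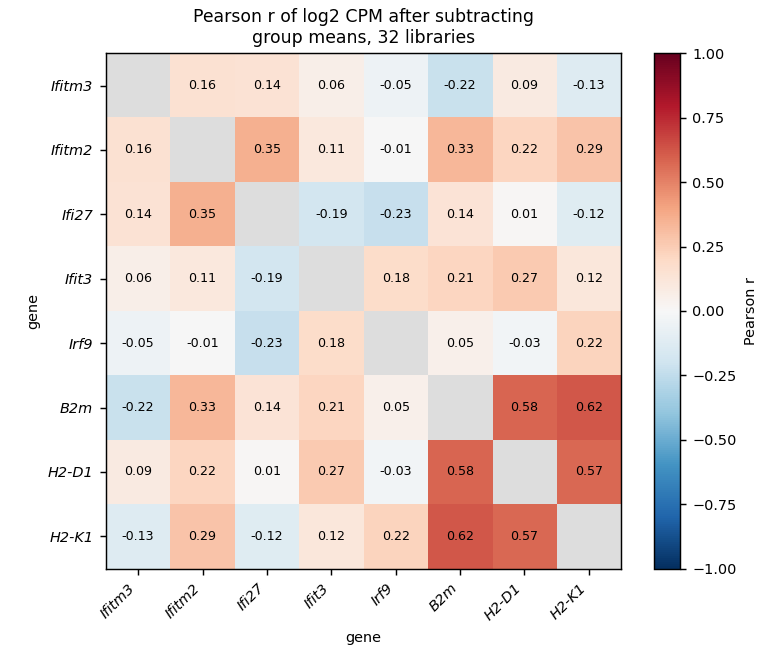
Pearson r between each pair of the 8 tested genes (both axes) in log2 CPM after subtracting group means, 32 libraries, from blue (-1) to red (1). The block of B2m, H2-D1 and H2-K1 stands at 0.57 to 0.62, and the other pairs lie between -0.23 and 0.35.

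Genes among the 3 most like each member on the same measure, of 10083 genes, are named as a description. For Ifitm3 they were Med28 (r = 0.693), Ldhb and Vps4a, and for Ifitm2 Cldn5 (0.645) and Gtf3c1. For Ifi27 they were Usp30 (0.667), Cyp2d22 and Ift88, for Ifit3 Rcor2 (0.648), Sipa1l2 and Zfand2a, and for Irf9 Unc119b (0.706), Osbpl9 and Cacna1g. For B2m they were Plat (0.734), Akt1 and Ncoa5, for H2-D1 Idh3a (0.820) and Mrpl10, and for H2-K1 Slc25a42 (0.691), Taf2 and Lgmn. Libraries share depth, dissection and no-feature share, which all enter such values.

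The rest of the pathway was read from 9 lists of 164 genes, of which 162 were in the files and 40 were tested. No ligand was counted: all 20 interferon genes, Ifnb1, Ifng and the alpha and lambda families, had 0 counts in every library. Reads that aligned more than once are not in these counts, and depth was limited. A count of 0 therefore does not show that a ligand was absent. Of the 6 receptor genes, Ifnar1, Ifnar2, Ifngr1 and Ifngr2 were tested and none passed in any comparison. Of 13 signalling kinases and transcription factors 9 were tested. All 9 had a higher value in AON12.1 than in WT mice, beside 51.6% of all tested genes, with a median log2 fold change of 0.34. Against WT, 8 of the 9 also had a higher value in YAC128 aCSF mice (median 0.31) and 8 in scrambled mice (median 0.17). Between AON12.1 and aCSF mice 5 had a higher value and 4 a lower one, with a median of 0.043. Between AON12.1 and scrambled mice 7 had a higher value and 2 a lower one, with a median of 0.20. In each of these comparisons edgeR called 0. The summed level of the 13 ran from 236.6 to 333.9 CPM in WT, 313.7 to 399.2 CPM in YAC128 aCSF, 300.8 to 368.2 CPM in scrambled and 349.6 to 380.7 CPM in AON12.1 mice.

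Irf2, a factor that competes at response elements, had a log2 fold change of 0.75 ± 0.25 (SE) between YAC128 aCSF and WT mice with an adjusted p of 0.204. Irf8, a myeloid interferon regulatory factor, was at 25 ± 3.48 CPM in AON12.1 against 16.6 ± 5.98 CPM in WT mice (SD, n = 8), a log2 fold change of 0.58 ± 0.19 with an adjusted p of 0.143. Among 8 inhibitors, 4 were tested, and Ptpn2, a phosphatase acting on Jak kinases, had 0.71 ± 0.23 between AON12.1 and WT mice with an adjusted p of 0.147. Of 17 nucleic acid sensors and adaptors, Tbk1 and Unc93b1 were tested, and Unc93b1, which carries endosomal Toll-like receptors, had 0.62 ± 0.21 in the same comparison with an adjusted p of 0.161.

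Most other interferon-induced genes were too scarce to test: 9 of 57 passed the filter and edgeR called 0 in any comparison. Between AON12.1 and WT mice 5 of these 9 had a higher value and 4 a lower one. Their median log2 fold change there was 0.003, beside 0.008 for all tested genes. Ifit3b had 0.69 ± 0.25 between YAC128 aCSF and WT mice and -0.72 ± 0.25 between scrambled and aCSF mice, with adjusted p of 0.245 and 0.304. Lgals3bp, a secreted glycoprotein, had 0.52 ± 0.20 between AON12.1 and WT mice with an adjusted p of 0.216. Of 19 further class I and related genes in the files, H2-T22 and Fcgrt were tested and edgeR called neither. Of 14 peptide loading and immunoproteasome genes 8 were tested and edgeR called 0: Calr, the chaperone calreticulin, had 0.33 ± 0.09 between scrambled and aCSF mice with an adjusted p of 0.242, and Pdia3, a disulfide isomerase of the loading complex, -0.40 ± 0.14 between AON12.1 and WT mice with an adjusted p of 0.182. Between AON12.1 and WT mice 4 of these 8 had a higher value and 4 a lower one, with a median of -0.045. Of 8 MHC class II genes, Cd74 and H2-DMa were tested. Cd74, the invariant chain, was at 29.2 ± 9.09 CPM in AON12.1 against 16.1 ± 4.18 CPM in YAC128 aCSF and 16.4 ± 5.72 CPM in WT mice, with log2 fold changes of 0.84 ± 0.21 and 0.81 ± 0.21 and adjusted p of 0.0622 and 0.0609. Over the 40 tested pathway genes, 12 had an unadjusted p under 0.05 between AON12.1 and WT mice, 9 of them higher, or 30% beside 14.5% of all tested genes. In the genotype comparison the same count was 3 of 40, or 7.5% beside 12.5%. Between AON12.1 and scrambled mice the share was 5% beside 7.25%, and between AON12.1 and aCSF mice 7.5% beside 11.6%. For scrambled mice it was 12.5% beside 9.83% against aCSF and 2.5% beside 9.8% against WT. The mean of the YAC128 groups against WT had 17.5% beside 13.5%. Among these lists, DESeq2 called Calr between scrambled and aCSF mice (adjusted p of 0.0386) and Cd74 between AON12.1 and WT mice (adjusted p of 0.0430) and no other gene.

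A few microglial markers were called higher in the oligonucleotide groups, and most of the list was not. The summed level of the 20 markers, all detected in each group and 18 of them tested, had a lowest, median and highest of 985, 1097 and 1251 CPM in WT libraries, 849, 1006 and 1185 CPM in YAC128 aCSF, 1151, 1301 and 1492 CPM in scrambled and 1087, 1246 and 1748 CPM in AON12.1 mice. Of the 18, edgeR called Tyrobp, an adaptor of microglial receptors, higher in AON12.1 than in WT mice, by 0.56 ± 0.13 with an adjusted p of 0.0275. It called Tyrobp higher in AON12.1 than in aCSF mice, by 0.79 ± 0.13 with an adjusted p of 0.00122. C1qa, C1qb and Tyrobp were higher in scrambled than in aCSF mice, by 0.62 ± 0.12, 0.58 ± 0.11 and 0.62 ± 0.13, and C1qa was higher in scrambled than in WT mice, by 0.56 ± 0.12. In each of these 4 comparisons 13 of the 18 had a higher value and 5 a lower one. An unadjusted p under 0.05 was reached by 1 of the 18 between AON12.1 and WT, beside 14.5% of all tested genes, by 7 between AON12.1 and aCSF (11.6%), by 7 between scrambled and aCSF (9.83%) and by 7 between scrambled and WT (9.8%). Between AON12.1 and scrambled mice edgeR called 0, and 7 were higher and 11 lower. Between YAC128 aCSF and WT mice edgeR called 0 of the 18, and 15 had a lower value. With the mean log2 level of these markers as a covariate, Ifitm3 remained called between AON12.1 and WT mice at 0.67 with an adjusted p of 0.0220. B2m was then at 0.58 with an adjusted p of 0.0567, Ifi27 at 0.55 with 0.0548 and H2-K1 at 0.59 with 0.0709. Across libraries with group means subtracted, the marker mean had r = 0.407 with H2-D1, 0.392 with B2m and 0.334 with H2-K1 (rho 0.326, 0.329 and 0.300), each with an adjusted permutation p of 0.192 for r and 0.410 for rho over 16 relations. Without the 2 libraries farthest from the median of the marker mean, these r were 0.251, 0.270 and 0.233. The marker mean is an RNA level in bulk tissue, and it includes Tyrobp, C1qa and C1qb, which were themselves called between groups. It cannot tell cell number from RNA per cell. The part of microglial cell number in the members' differences was not tested.

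Other glial and neuronal markers differed between some groups. The 10 astrocyte markers summed to 3075 to 3763 CPM in WT, 2557 to 3008 CPM in YAC128 aCSF, 2842 to 3464 CPM in scrambled and 2781 to 3433 CPM in AON12.1 mice, so the WT and YAC128 aCSF ranges of the sum did not overlap. Taken singly, each of the 10 overlapped between these groups, and 8 had a lower and 2 a higher value in YAC128 aCSF mice. Their median log2 fold change was -0.09, and edgeR called 0 and DESeq2 2 of them. Among the astrocyte markers edgeR called Gfap higher in AON12.1 than in aCSF mice, by 0.77 ± 0.18 with an adjusted p of 0.0410, and Aldoc lower in the mean of the YAC128 groups than in WT, at -0.28 ± 0.06 with an adjusted p of 0.0284. Of 6 oligodendrocyte markers it called Mobp lower in AON12.1 than in WT mice, at -0.61 ± 0.12 with an adjusted p of 0.00783, and in the mean of the YAC128 groups, at -0.51 ± 0.10 with an adjusted p of 0.00848. Of the 12 striatal projection neuron markers 11 had a lower value in YAC128 aCSF than in WT mice, and Adora2a and Penk were called, at -0.83 ± 0.18 and -0.76 ± 0.16, each with an adjusted p of 0.0495. The part of these cell types in the members' differences was not tested.

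Markers of vessels and blood-borne cells overlapped between groups or were scarce. The 17 endothelial markers summed to 499 to 613 CPM in WT, 441 to 582 CPM in YAC128 aCSF, 513 to 576 CPM in scrambled and 501 to 610 CPM in AON12.1 mice, and with their mean as a covariate the 4 calls of the AON12.1 comparison remained. The 7 border macrophage markers summed to at most 8.09 CPM, the 6 monocyte and neutrophil markers to at most 14.1 CPM and the 10 lymphocyte markers to 8.16 to 58.9 CPM. The T cell gene Cd3d was at 0 in all 4 groups and the macrophage gene Ms4a7 at 0 in 3. Choroid plexus markers reached 3463 CPM in YAC128 aCSF replicate 4 beside a group median of 106 CPM. In that library B2m was at 62.2 CPM and Ifitm3 at 52.8 CPM, both within the range of its group.

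**Figure D4:**
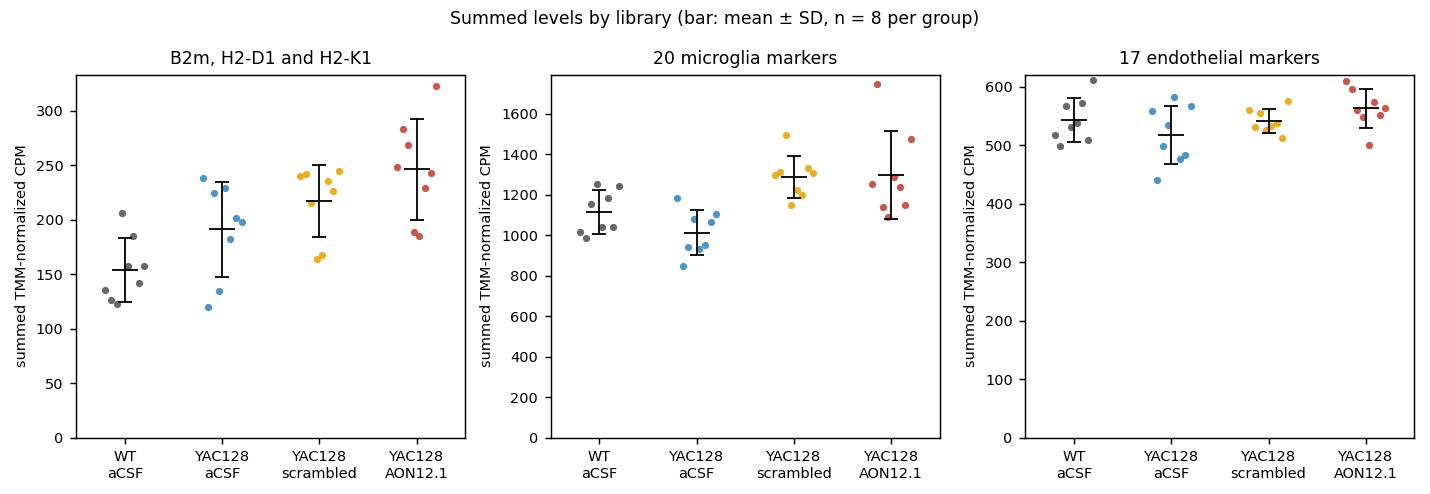
Summed levels in CPM (y axes, from 0) of the 3 class I genes, the 20 microglia markers and the 17 endothelial markers in each library of the 4 groups (x axis), with mean ± SD, n = 8. The class I sum has medians of 150, 200, 231 and 246 CPM in WT, YAC128 aCSF, scrambled and AON12.1 mice; microglia sums are lowest in YAC128 aCSF mice and endothelial sums overlap.

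How firmly the AON12.1 calls stood differed between genes under 9 other settings of the fit. Ifitm3 stayed called in all 9, with adjusted p of 0.00136 to 0.0359. B2m stayed called in 8, with the covariate of microglial markers as the exception, and Ifi27 and H2-K1 in 7 each. Among libraries with at most 25% of counts in no feature, a limit set after seeing the data (7 WT, 3 YAC128 aCSF, 7 scrambled and 5 AON12.1 libraries), 3 members were called, Ifitm3, B2m and H2-D1, and H2-K1 was at 0.69 with an adjusted p of 0.188. H2-D1 passed under 5 of the 9 settings, its smallest adjusted p, 0.00815, coming from the fit with that share as a covariate. The no-feature share had r = -0.453 with H2-D1 and -0.436 with Ifitm3 across libraries after subtracting group means (rho -0.426 and -0.247), each with an adjusted permutation p of 0.149 for r, and 0.341 and 0.423 for rho, and r of -0.317 and -0.345 after dropping the 2 libraries whose share was farthest from the median.

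**Figure D5:**
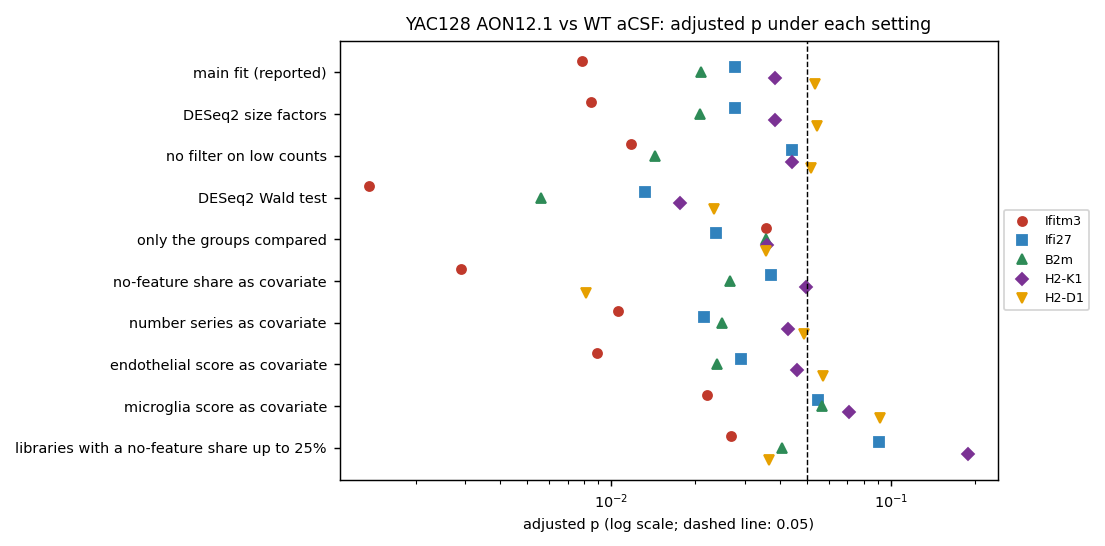
Adjusted p (x axis, log scale) of 5 genes between AON12.1 and WT mice in the reported fit and under 9 other settings (y axis); the dashed line marks 0.05. Ifitm3 lies left of the line in every row, and H2-D1 lies on either side of it. B2m, Ifi27 and H2-K1 cross it when microglia markers enter as a covariate. Ifi27 and H2-K1 also cross it among libraries with at most 25% of counts in no feature.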

How the data were processed

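The authors deposited unnormalized whole-number counts, with a separate file for each library. Reverse transcription of 100 ng total RNA was done, per the labels' protocols, by a modified mcSCRB-seq method with a barcoded oligo-dT primer carrying a unique molecular identifier, which samples transcript 3′ ends. Per the submitters' processing notes, reads were handled with HTSeq 0.12.4, STAR 2.7.5a, cutadapt 2.10 and FastQC on build GRCm39. Collapsing by identifier and strand in counting are not given in the sources used here. Summary lines (22.8% of counts in no feature on average, 8.80% aligned more than once) stayed out of library sizes.

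In R 4.3.3, edgeR 4.0.16 fitted all 32 libraries with 1 coefficient per group after TMM normalization. filterByExpr (minimum count 10, minimum total 15) kept 10679 genes. Each of 7 comparisons was a quasi-likelihood contrast with p-values adjusted by Benjamini-Hochberg over every gene tested, called at an adjusted p under 0.05. Fold changes are log2 ± SE and levels CPM ± SD. In counts simulated for the genotype comparison over 10541 genes, 52 of 99 genes changed 1.5-fold and 87 of 98 changed 2-fold were called. Correlations used log2 CPM (prior count 2) less group means, with 100000 permutations within groups. Alternatives were DESeq2 1.42.0 (size factors, Wald test), no filter, the compared groups only, covariates for no-feature share, animal number series, microglial or endothelial markers, a no-feature limit of 25%, and leaving out each library.

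Members and lists were chosen with earlier results of these data known. Named pathway genes were those called, otherwise up to 3 per list by smallest p; likeness genes were the 3 highest r, without predicted genes. A few genes that these rules name are not reported here. The gene annotation served for names, chromosomes, overlaps between genes and 3′ sequence only, since its build, GRCm38, is not that of the counts. Promoters are RefSeq's.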

Additional observations from a re-analysis of the deposited data

Results flagged for a closer look

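The spread of each member was checked in each group of 8 libraries for a single library standing apart from the others by Dixon's criterion, 36 groups of values in all. Chance flags about 1 in 20 such groups. A pair of values met it. Ifitm3 was at 32.9 CPM in AON12.1 replicate 3, the lowest of its group, with the next library at 47.6 CPM. H2-K1 was at 48.6 CPM in WT replicate 4, the highest of its group, with the next library at 34.3 CPM. Without that WT library the log2 fold change of H2-K1 between AON12.1 and WT mice was 0.83 with an adjusted p of 0.00786, and it stayed called. Ifitm3 stayed called without AON12.1 replicate 3.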

How the results depend on the processing

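No paired analysis was possible because the titles number animals, not replicates shared between groups. Members called between scrambled and WT mice became 1 with no filter on low counts (B2m), with the no-feature covariate (Ifitm3), with the 2 groups alone (B2m) and with DESeq2 (B2m). For the mean of the YAC128 groups they became 2 with no filter (Ifitm3 and B2m) and 3 with DESeq2 (Ifitm3, B2m and Ifi27). For AON12.1 against WT they became 1 with the microglia covariate. Leaving out 1 library gave 1 to 5 members for AON12.1 against WT, 0 to 1 for scrambled against WT and 1 to 3 for the mean of the YAC128 groups. The other 4 comparisons gave 0 members in every setting run. With DESeq2 a member without an adjusted p could not be called. Of the 8 members, it gave an adjusted p to 0 for genotype, 1 for scrambled against aCSF, 5 for AON12.1 against aCSF and 8 for AON12.1 against scrambled.

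Values that changed sign, none of them called, were those of H2-D1 between scrambled and aCSF (-0.035 with the no-feature covariate, -0.15 with the microglia covariate and -0.18 at the 25% limit), H2-K1 there (-0.073 with the microglia covariate), Ifitm2 between scrambled and WT (-0.014 with the microglia covariate) and Irf9 between AON12.1 and scrambled (0.00399 with the number series, 0.039 with the endothelial covariate and 0.18 at the 25% limit). Leaving out 1 library changed a sign in 25 fits, spread over 7 values: B2m in AON12.1 against scrambled (-0.032 to 0.12), H2-D1 in scrambled against aCSF (-0.039 to 0.12), Ifit3 in AON12.1 against aCSF (-0.013 to 0.15) and in scrambled against WT (-0.23 to 0.015), Ifitm2 in AON12.1 against WT (-0.19 to 0.075), Ifitm3 in scrambled against aCSF (-0.096 to 0.0098) and Irf9 in AON12.1 against scrambled (-0.12 to 0.076). The cause was not tested.

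All genes called moved more than the members. For genotype (8 genes) they were 21 with no filter, 4 with the no-feature covariate, 3 with the microglia covariate, 54 with DESeq2 and 1 at the 25% limit. For AON12.1 against scrambled (15) they were 7 with those groups alone and 8 at the limit. For AON12.1 against aCSF (33) they were 57 with no filter, 3 with the microglia covariate, 90 with DESeq2 and 6 at the limit. For scrambled against aCSF (9) they were 14 with no filter, 5 with the number series, with the endothelial covariate and with those groups alone, 1 with the microglia covariate, 23 with DESeq2 and 1 at the limit. For AON12.1 against WT (60) they were 104 with DESeq2 and 33 at the limit. For scrambled against WT (18) they were 33 with no filter, 28 with the no-feature covariate, 11 with the endothelial covariate and 39 with DESeq2. For the mean of the YAC128 groups (25) they were 48 with no filter, 50 with the microglia covariate, 74 with DESeq2 and 10 at the limit. Leaving out 1 library gave 3 to 142, 10 to 17, 26 to 73, 3 to 13, 49 to 97, 10 to 27 and 13 to 103 genes in the order of these comparisons; the highest counts for genotype and for the mean of the YAC128 groups came without WT replicate 1.

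Depth limits the scarce members, such as Bst2, Irf9 and Ifitm2, with 216, 318 and 354 counts over all libraries.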
